A study of Mus musculus with 6 samples.

Results

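The epidermal growth factor (EGF) receptor family and its ligands are described here as 10 genes, taken by name from tables of 35976 genes: the receptor genes Egfr, Erbb2, Erbb3 and Erbb4, the neuregulin genes Nrg1, Nrg2 and Nrg3, and the ligand genes Hbegf, Tgfa and Areg. All 10 were found in the tables, and 8 of them passed the low-count filter and were among the 13159 genes tested; Nrg2 and Areg did not and are given as counts. The RNA came from amygdala neurons of male C57BL/6J mice, whose age is not given in the sources used here. Their amygdala had received an AAV, a viral vector that expresses Cas9 under GfaABC1D, a promoter active in astrocytes, with guides against Egfr (3 libraries, labelled sgEgfr, genotype sgEgfrAstro) or against Rosa, a control locus (3 libraries, labelled sgRosa, genotype sgRosa26). All mice in both groups were given more than 2 weeks for expression, then 7 days of tube restraint, fear conditioning for 1 day and extinction over 3 days, so no unstressed group was analysed here. The protocol text shared by the samples also describes guides against Areg or Rosa in microglia, and no library used here is labelled with an Areg guide. Neurons were enriched magnetically from papain-digested tissue, whereas Cas9 was meant for astrocytes, so the cells selected for sequencing were not those meant to be edited. The comparison asks whether neuron-enriched cells of stressed mice differ in gene expression when the surrounding astrocytes carry guides against Egfr.

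The 4 receptors are membrane tyrosine kinases that pair with one another when a ligand binds. EGFR binds the ligands made from Hbegf, Tgfa and Areg, ERBB3 and ERBB4 bind neuregulins, and ERBB2 has no known ligand of its own and serves as a partner. The ligands are made as membrane proteins that are cut free by proteases, and active receptors signal through RAS and ERK, which in turn induce feedback inhibitors such as the Sprouty genes. In the brain EGFR is known from astrocytes and precursor cells, ERBB3 from the oligodendrocyte lineage and ERBB4 from interneurons, while neuregulins are made largely by neurons.

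Promoters are shown for 3 members whose levels ran together or in opposite ways across the libraries, as described below. Tgfa and Erbb4 were high in the same libraries, and Nrg3 was high in the others. The RefSeq table for GRCm38.p6 held promoters of 6 of the 10 members, each 300 bases running from 250 before to 50 after the gene start. Capitals mark the GC box GGGCGG on either strand. The coordinates are chr6:86194972-86195271 (plus strand) for Tgfa, chr1:69108010-69108309 (minus strand) for Erbb4 and chr14:39473039-39473338 (minus strand) for Nrg3.
Tgfa: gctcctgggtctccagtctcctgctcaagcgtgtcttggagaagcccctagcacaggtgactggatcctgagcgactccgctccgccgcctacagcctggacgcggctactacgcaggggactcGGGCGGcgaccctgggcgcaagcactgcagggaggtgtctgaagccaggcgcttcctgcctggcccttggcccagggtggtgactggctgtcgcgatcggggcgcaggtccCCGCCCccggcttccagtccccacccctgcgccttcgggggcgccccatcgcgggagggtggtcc
Erbb4: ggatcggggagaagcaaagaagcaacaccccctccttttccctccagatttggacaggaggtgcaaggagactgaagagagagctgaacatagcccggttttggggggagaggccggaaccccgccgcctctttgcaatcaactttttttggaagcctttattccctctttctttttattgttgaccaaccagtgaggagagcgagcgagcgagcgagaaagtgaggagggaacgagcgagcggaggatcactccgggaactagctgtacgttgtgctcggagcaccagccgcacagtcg
Nrg3: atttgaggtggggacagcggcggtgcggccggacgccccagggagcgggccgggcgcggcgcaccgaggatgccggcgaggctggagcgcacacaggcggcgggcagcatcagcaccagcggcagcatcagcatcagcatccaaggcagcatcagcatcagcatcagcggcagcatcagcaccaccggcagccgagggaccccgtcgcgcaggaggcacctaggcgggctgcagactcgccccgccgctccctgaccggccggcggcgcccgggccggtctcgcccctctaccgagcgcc
The Tgfa promoter held 2 GC boxes and the Erbb4 and Nrg3 promoters held 0, where 35.7% of the 32851 promoters in the table held at least 1. The share of G and C was 70.7% in Tgfa, 55.3% in Erbb4 and 74.3% in Nrg3, against a median of 52.7% over all promoters. No TATA box (TATAAA, found in 13.6% of promoters), no CCAAT box (CCAAT, 37.4%) and no SOX core (ACAATG or ACAAAG, 28.6%) lay on either strand of these 3 windows. These matches describe letters and not binding.

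Total counts ranged from 2348897 to 10152812 per library, and 1 count was worth between 0.0900 and 0.418 CPM, the number of reads per 1e6 after TMM scaling. All 12 pan-neuronal markers were counted in every library, with summed levels of 1989 to 5440 CPM in sgRosa and 3071 to 5199 CPM in sgEgfr. RNA of other cell types was also present: the 12 oligodendrocyte markers summed to 24771 to 73162 CPM in sgRosa and 22791 to 58338 CPM in sgEgfr, and the 12 astrocyte markers to 931 to 1632 and 569 to 1745 CPM. The oligodendrocyte sum was above the pan-neuronal sum in every library, though sums over different genes do not measure shares of cells. A member's level here is therefore not a level in neurons alone. The 9 choroid plexus and ependyma markers reached 11417 CPM in sgRosa replicate 3 and 8369 CPM in sgEgfr replicate 1, against 514 to 2449 CPM in the other 4 libraries. These 2 libraries therefore stand apart, and results that change direction without them are given as such. In bulk libraries fewer cells of a type and less RNA per cell cannot be told apart.

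Egfr, the targeted gene (chromosome 11, 16752203 to 16918158, plus strand, mm10), had low counts, between 1 and 26 per library. Reads numbered 1, 26 and 23 in sgRosa replicates 1, 2 and 3 (0.281, 10.9 and 2.07 CPM) and 6, 18 and 6 in sgEgfr replicates 1, 2 and 3 (1.28, 4.02 and 2.34 CPM). The highest and the lowest library were both sgRosa, and the sgEgfr values lay between them. Counting error alone gives 95% Poisson intervals of 0.00712 to 1.57 CPM for sgRosa replicate 1 and 7.09 to 15.9 CPM for sgRosa replicate 2, which do not meet, so these control libraries differed by more than counting. Means were 4.40 ± 5.66 CPM for sgRosa and 2.54 ± 1.38 CPM for sgEgfr (SD, n = 3 each). The fitted log2 fold change was -0.64 (SE 1.01; 95% interval -2.98 to 1.71; edgeR quasi-likelihood adjusted p = 0.917), an interval from 0.127-fold to 3.26-fold. Without sgRosa replicate 2 it was 0.95. With these low counts and this spread between the control libraries, the interval does not show whether Egfr RNA differed between the groups, and a guide can also disrupt a protein without changing RNA. Whether the Egfr reads came from neurons, from remaining astrocytes or from precursor cells was not tested.

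**Figure D1:**
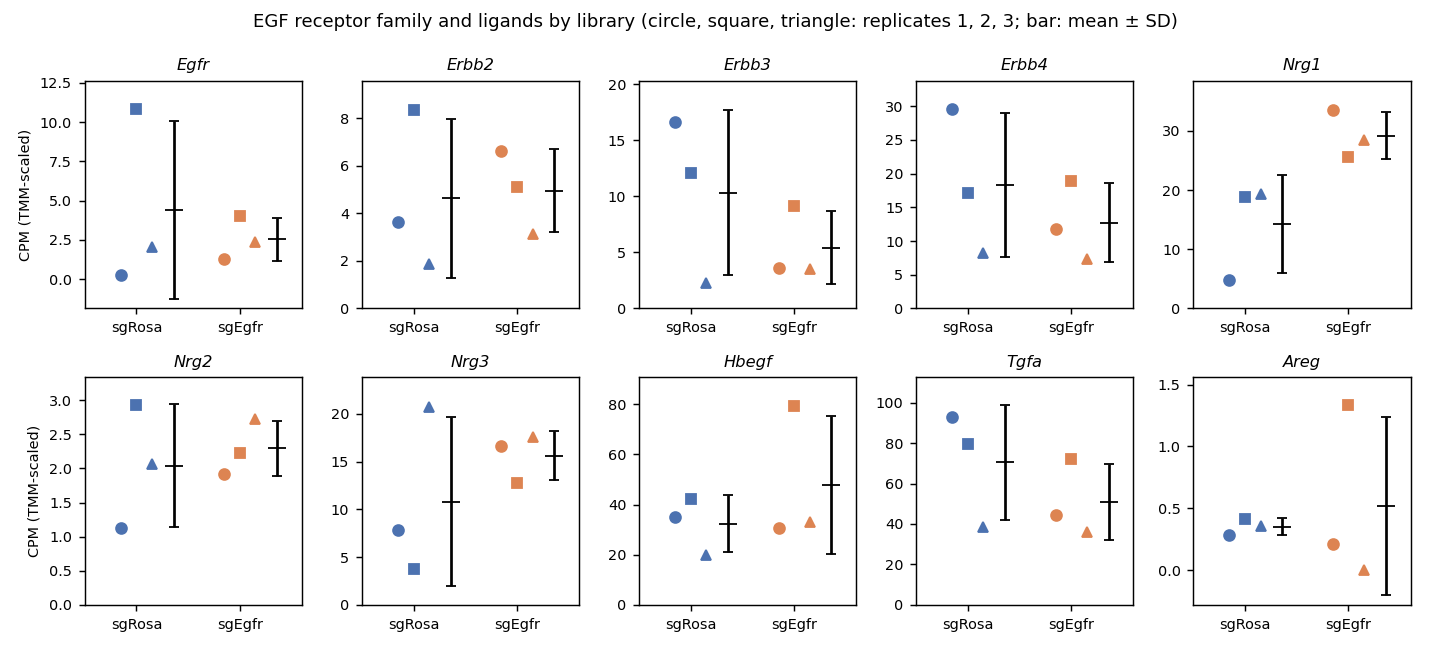
Level of each of the 10 genes (CPM, TMM-scaled; each panel has its own axis from 0, or just below it where the bar crosses 0) in the 3 sgRosa (blue) and 3 sgEgfr (orange) libraries; symbols mark replicates and the bar at the right of each group is the mean ± SD. The groups are separate for Nrg1, with sgRosa at 4.78 to 19.4 CPM and sgEgfr at 25.7 to 33.5 CPM, and overlap in the other 9 panels.

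The other receptors overlapped between the groups, and their counts over the 6 libraries together were 116 for Erbb2, 180 for Erbb3 and 397 for Erbb4, against 80 for Egfr. Erbb2 (chromosome 11, 98412470 to 98437716), the ligandless partner receptor, was at 3.66, 8.35 and 1.89 CPM in the sgRosa libraries and 6.61, 5.13 and 3.12 CPM in the sgEgfr libraries. Its log2 fold change was 0.22 (SE 0.59; 95% interval -1.14 to 1.59; edgeR adjusted p = 0.951). The direction turned when sgRosa replicate 3 (-0.20), sgEgfr replicate 1 (-0.0545) or both of these choroid plexus libraries (-0.47) were left out. Erbb2 had between 8 and 31 counts per library, and 9 bases of its exons overlap exons of Mien1 on the opposite strand.

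Erbb3 (chromosome 10, 128567523 to 128589652), which encodes a neuregulin receptor with an impaired kinase, was at 16.6, 12.1 and 2.25 CPM in sgRosa and 3.63, 9.15 and 3.51 CPM in sgEgfr. The 3 high libraries were sgRosa replicates 1 and 2 and sgEgfr replicate 2, and the other 3 lay between 2.25 and 3.63 CPM. Erbb4 (chromosome 1, 68032186 to 69108059), the neuregulin receptor with an active kinase, was at 29.5, 17.1 and 8.28 CPM in sgRosa and 11.7, 19.0 and 7.40 CPM in sgEgfr, with the same 3 libraries highest. The log2 fold changes were -0.86 for Erbb3 (SE 0.73; 95% interval -2.55 to 0.82; edgeR adjusted p = 0.835) and -0.50 for Erbb4 (SE 0.51; 95% interval -1.69 to 0.69; adjusted p = 0.864). Without sgRosa replicate 1 the value was -0.22 for Erbb3 and 0.0748 for Erbb4, and without sgEgfr replicate 2 it was -1.49 for Erbb3 and -0.91 for Erbb4.

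Of the neuregulin genes, Nrg1 had separate groups and the smallest p of all tested members, and Nrg3 and Nrg2 overlapped between groups. Nrg1 (chromosome 8, 31814551 to 32884029), which encodes the neuregulin with the largest number of annotated transcripts in the family here (18), had 17, 45 and 215 counts in sgRosa and 157, 115 and 73 counts in sgEgfr. These were 4.78, 18.8 and 19.4 CPM in sgRosa and 33.5, 25.7 and 28.4 CPM in sgEgfr, so the lowest sgEgfr library was above the highest sgRosa library. The means were 14.3 ± 8.26 and 29.2 ± 3.96 CPM (SD, n = 3 each). The log2 fold change of 1.02 (SE 0.47; 95% interval -0.0689 to 2.11) had an adjusted p of 0.781 by edgeR (unadjusted p = 0.0626, rank 1030 of 13159), and did not pass. It was positive under all 17 alternative settings, between 0.63 (leaving out sgRosa replicate 1) and 1.35 (leaving out sgRosa replicate 3), and passed under none of them (adjusted p from 0.201 to 0.999). Nrg1 was 1 of 8 tested members with separate groups, where 13.4% of all genes tested had them and 5.8% had them with sgEgfr higher; that is near the background. Exons of Nrg1 share 482 bases with the opposite-strand gene Gm26578, which had 4 counts in all 6 libraries together.

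Nrg3 (chromosome 14, 38368952 to 39473088), a neuregulin gene expressed largely in the nervous system that signals through ERBB4, was at 7.87, 3.76 and 20.7 CPM in sgRosa and 16.6, 12.7 and 17.5 CPM in sgEgfr. The sgEgfr libraries lay between the second and the highest sgRosa value. Its log2 fold change was 0.48 (SE 0.54; 95% interval -0.77 to 1.73; edgeR adjusted p = 0.881), and became 1.37 on leaving out sgRosa replicate 3 and 0.16 on leaving out sgRosa replicate 2. Nrg2 (chromosome 18, 36017652 to 36197380), another neuregulin gene of neurons, had 4, 7 and 23 counts in sgRosa and 9, 10 and 7 counts in sgEgfr. These were 1.12, 2.92 and 2.07 CPM against 1.92, 2.23 and 2.73 CPM, with the lowest coefficient of variation of the 10 genes (29.5%). At one constant CPM in all libraries its counts gave a chi-square per degree of freedom of 0.600, within counting noise, where the 8 tested members gave 6.70 to 64.6.

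Among the ligands of EGFR, Tgfa and Hbegf were well counted and Areg was not. Tgfa (chromosome 6, 86195223 to 86275719), which encodes transforming growth factor alpha, was at 93.1, 79.8 and 38.5 CPM in sgRosa and 44.6, 72.1 and 35.8 CPM in sgEgfr. The high libraries were again sgRosa replicates 1 and 2 and sgEgfr replicate 2. Its log2 fold change was -0.46 (SE 0.39; 95% interval -1.37 to 0.44; edgeR adjusted p = 0.835), the narrowest interval in the family, and ran from -0.19 (without sgRosa replicate 1) to -0.80 (without sgEgfr replicate 2). Hbegf (chromosome 18, 36504927 to 36515805), the gene of heparin-binding EGF-like growth factor, was at 34.9, 42.2 and 19.98 CPM in sgRosa and 30.5, 79.4 and 33.1 CPM in sgEgfr. Its log2 fold change was 0.57 (SE 0.44; 95% interval -0.45 to 1.59; edgeR adjusted p = 0.821) and was -0.0044 without sgEgfr replicate 2, the highest library. That library also had the highest summed red blood cell (4047 CPM), microglia (531 CPM) and oligodendrocyte precursor (488 CPM) markers of the 6. The other 5 libraries had 403 to 1359, 38.2 to 357 and 159 to 357 CPM for these lists, and their part in the Hbegf value was not tested.

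Areg (chromosome 5, 91139599 to 91148432), the gene of amphiregulin, had 1, 1 and 4 counts in sgRosa and 1, 6 and 0 counts in sgEgfr, 13 reads in all. A count of 0 in sgEgfr replicate 3 allows up to 1.17 CPM (3 counts), and the highest library, sgEgfr replicate 2, was at 1.34 CPM. A difference between groups was not detectable at this depth. The other 5 EGF-family ligand genes were also at or near the floor and were not tested. Ereg and Epgn had 0 counts in all 6 libraries, Btc had 0 to 3 counts, Egf had 0 to 4 and Nrg4 had 1 to 6.

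None of the ligand-to-receptor ratios computed here separated the groups. Other pairs, among them Hbegf and Erbb4, were not computed. Ratios of CPM per kb between members, 8 in all and some of them between ligands or between receptors, were chosen after the members' values had been seen. The ratio of Tgfa to Hbegf, a ligand-to-ligand ratio, was the only one whose groups did not overlap. It was 1.99, 1.41 and 1.44 in sgRosa and 1.09, 0.676 and 0.806 in sgEgfr. Its two-sided exact permutation p was 0.1, the smallest that 3 against 3 libraries allow, and 0.8 adjusted over the 8 ratios. The ratio of Nrg1 to Erbb4 ran from 0.193 to 2.79 in sgRosa and from 1.61 to 4.59 in sgEgfr (exact permutation p = 0.2; 0.8 adjusted).

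Adjusted over 13159 genes (edgeR quasi-likelihood test, Benjamini-Hochberg), 0 of the 8 tested members passed an adjusted p of 0.05, as did 0% of all genes tested. At an unadjusted p under 0.05 there were 0 members and 6.16% of all genes tested. Limma-voom also called 0 members, and DESeq2 called 0 of the 4 with a defined adjusted p (undefined for Egfr, Erbb2, Erbb3 and Nrg3). The members split evenly in direction, with 4 of 8 log2 fold changes above 0 (46.3% of all genes tested) and a median of -0.12, against -0.0382 over all genes. The 95% intervals of all 8 members included no change. They also included a 2-fold difference in at least 1 direction for each, so these data do not show that the genes were equal in the groups.

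**Figure D2:**
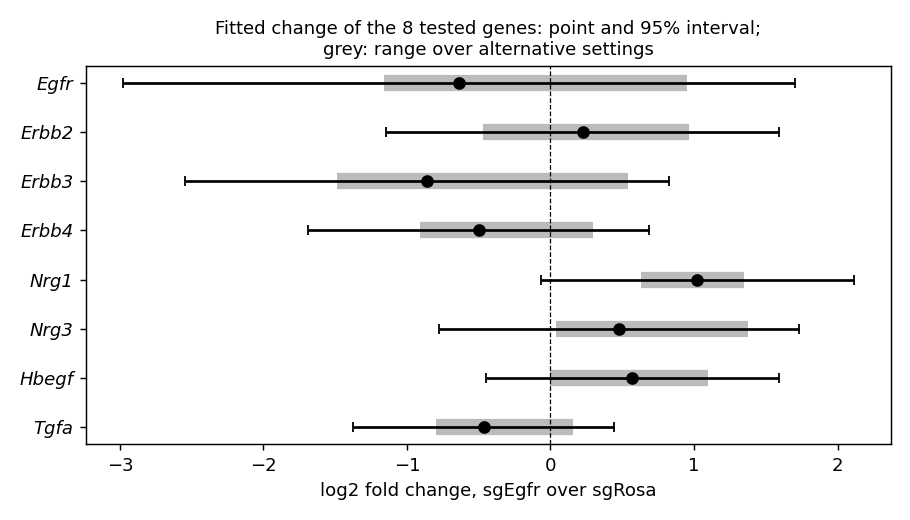
Fitted log2 fold change of sgEgfr over sgRosa for the 8 tested genes (points), with 95% intervals (black lines) and the range over the alternative settings (grey bars). Every interval crosses 0, and the grey bar stays on one side of 0 for Nrg1 (0.63 to 1.35) and Nrg3 (0.0368 to 1.37).

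By median CPM per kb of exon, Tgfa and Hbegf were the highest members and Egfr the lowest. Tgfa had a median of 8.99 CPM per kb (5.52 to 14.3 over the 6 libraries) and Hbegf 7.03 (4.13 to 16.4). Tgfa was above Hbegf in 4 of 6 libraries, so their order is not settled. Hbegf was above Nrg1, the next in order, in 6 of 6. Nrg1 (2.17) and Nrg3 (2.15) followed, then Erbb4 (1.17), Erbb3 (1.06), Erbb2 (0.843) and Nrg2 (0.685), and neighbours in this stretch exchanged places in 2 of the 6 libraries. Areg (0.264) and Egfr (0.195) were lowest, and Egfr was above Areg in 2 of 6 libraries. Among 12557 tested genes with a length, the medians of Tgfa and Hbegf lay above 68.4% and 61.7% of genes, those of Nrg1 and Nrg3 above 28.1% and 27.8%, and those of Erbb2, Erbb3 and Erbb4 above 8.70% to 13.9%. Lengths are unions of all annotated exons, so a gene that uses a short transcript reads too low on this scale.

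**Figure D3:**
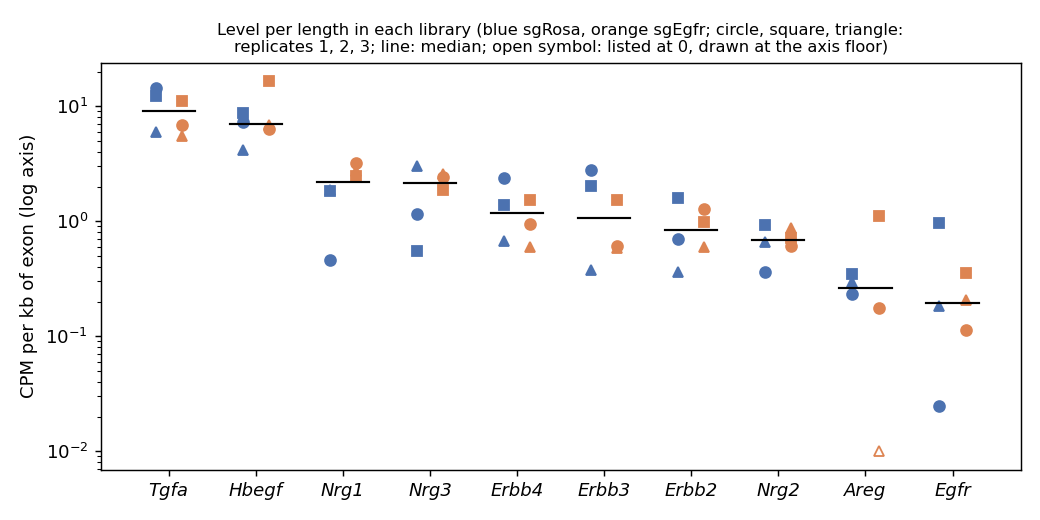
Level per kb of exon (log axis) for the 10 genes in order of their median (black line), in sgRosa (blue) and sgEgfr (orange) libraries; symbols mark replicates and the open triangle is the library with 0 Areg counts. Tgfa and Hbegf sit at 4.13 to 16.4 in every library, above the other 8 genes, whose highest value is 3.23.

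Erbb3, Erbb4 and Tgfa ran with one another and with the oligodendrocyte markers across the libraries of both groups. Over the 6 libraries the Pearson correlation of log2 CPM was 0.97 between Erbb3 and Tgfa, 0.97 between Erbb4 and Tgfa and 0.93 between Erbb3 and Erbb4. With the mean log2 CPM of the 12 oligodendrocyte markers it was 0.94 for Erbb3, 0.99 for Erbb4 and 0.98 for Tgfa, and with that of the 12 pan-neuronal markers -0.96, -0.92 and -0.98. Nrg3 had the opposite pattern, at -0.75 with oligodendrocyte and 0.90 with pan-neuronal markers, and Nrg1 was at -0.70 and 0.67. Other lists also ran with or against these members. With inhibitory neuron markers the correlation was 0.87 for Erbb3, 0.68 for Erbb4, 0.83 for Tgfa, -0.93 for Nrg3 and -0.58 for Nrg1. With endothelial and mural markers it was 0.74, 0.78, 0.68, -0.46 and -0.72 in the same order. Hbegf was at 0.48 with oligodendrocyte and 0.90 with oligodendrocyte precursor markers. Egfr was at -0.09 with oligodendrocyte, 0.51 with astrocyte and 0.62 with oligodendrocyte precursor markers. These correlations describe 6 libraries that share scaling and makeup, are given without a test and were among 110 member and marker list pairs computed.

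The same markers also differed in direction between the groups without passing the test. All 12 oligodendrocyte markers had log2 fold changes below 0 (median -0.79) and all 12 pan-neuronal markers above 0 (median 0.47), with 0 passing by edgeR in each list. Inhibitory neuron markers were below 0 in 5 of 5 tested (median -0.96), and excitatory neuron markers were above 0 in 8 of 8 (0.84), microglia markers in 9 of 9 (1.37) and red blood cell markers in 5 of 5 (1.78), again with 0 passing, and the part of these lists in the members' values was not tested. Over all genes tested 46.3% were above 0. Microglia sums were 72.8, 134 and 183 CPM in sgRosa and 357, 531 and 38.2 CPM in sgEgfr, so sgEgfr replicate 3 was the lowest library. Red blood cell sums were 1070, 403 and 405 CPM in sgRosa and 1359, 4047 and 586 CPM in sgEgfr, which also overlap. With the oligodendrocyte mean of each library as a covariate, the log2 fold changes turned to 0.20 for Erbb3, 0.16 for Erbb4 and 0.0206 for Tgfa, and with the pan-neuronal mean to 0.54, 0.30 and 0.16. Nrg1 stayed at 0.83 and 0.78, and Nrg3 at 0.21 and 0.0368. In the same order Hbegf was at 0.94 and 1.09965, Erbb2 at 0.70 and 0.97, and Egfr at -0.38 and -0.0449. Without a covariate these genes were at 0.57, 0.22 and -0.64. The standard error of Egfr with the pan-neuronal mean was 1.06, and no member passed an adjusted p of 0.05 with either covariate. Inhibitory neuron markers, of which 5 of 9 were tested, were at 127 to 304 CPM in sgRosa and 105 to 226 CPM in sgEgfr in sum, with Dlx2 and Dlx5 at 0 in at least 1 library. Their correlation with Erbb4, a receptor known from interneurons, was 0.68 and lower than that of oligodendrocyte markers, a difference that was not tested. A second list, of 8 markers of parvalbumin and other ERBB4-type interneurons, had a correlation of 0.0785 with Erbb4. Its log2 fold changes were above 0 in 4 of 6 tested genes (median 0.13), unlike those of the inhibitory neuron list.

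**Figure D4:**
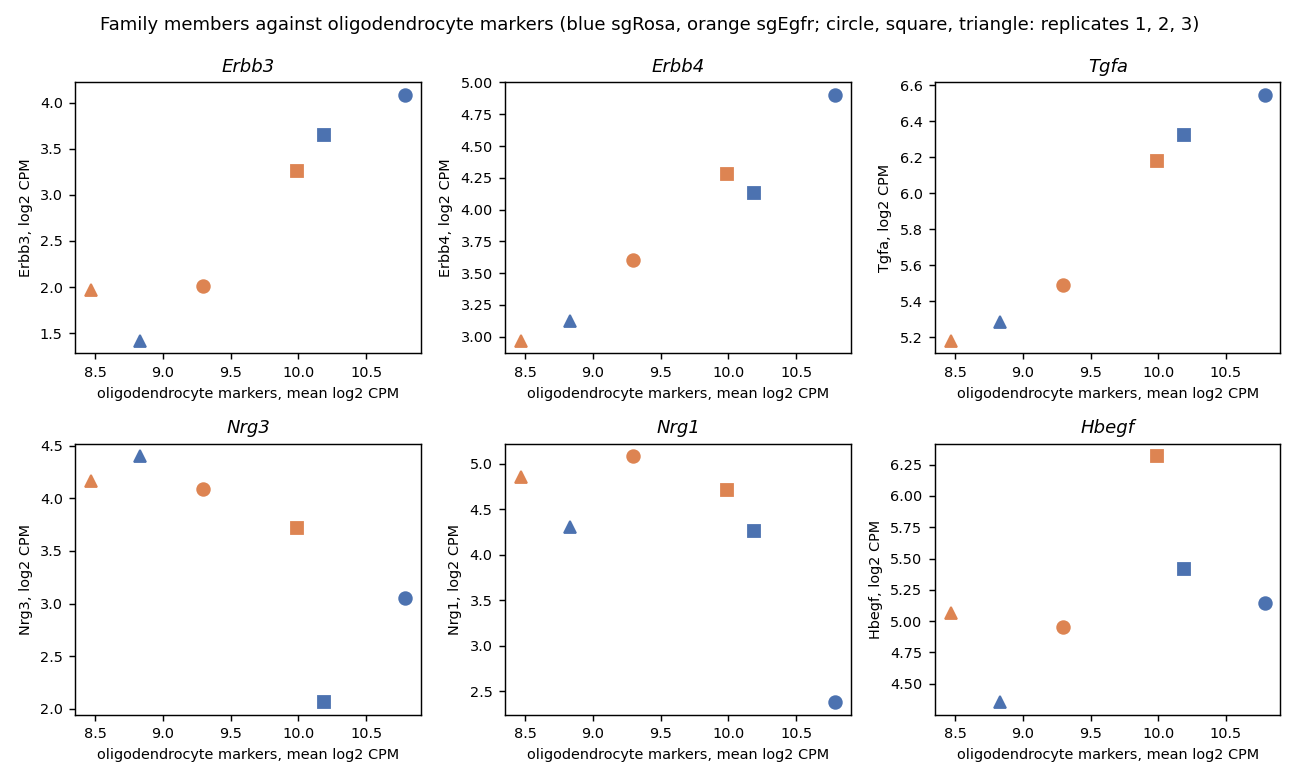
Log2 CPM of 6 family members (vertical axes) against the mean log2 CPM of 12 oligodendrocyte markers (horizontal axes) in the 6 libraries, blue for sgRosa and orange for sgEgfr, with symbols for replicates. Erbb3, Erbb4 and Tgfa run upward along the axis (correlations of 0.94, 0.99 and 0.98) with both groups on one line, and Nrg3 runs downward (-0.75).

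The rest of the pathway was read from 6 lists of 81 genes, of which 73 were tested. No list gene passed by edgeR, 3 had an unadjusted p under 0.05 (6.16% of all genes tested did), and 10 had separate groups (13.4% of all genes tested did). Enzymes that cut or process the ligands were split, with 5 of 9 tested genes above 0 (median 0.0233). Adam10, a sheddase gene, was at 0.28 (-0.00338 without sgRosa replicate 3 and -0.0460 without both choroid plexus libraries). Bace1, whose protease cuts neuregulin 1, was at -0.66 and Rhbdf2 at 0.43. Adaptors and effectors at the receptor were above 0 in 16 of 22 (median 0.20), with the PI3-kinase gene Pik3ca at 0.48, the transcription factor gene Stat5b at 0.48 and the exchange factor gene Vav2 at -0.96. Receptor inhibitors and turnover genes were above 0 in 9 of 17 (median 5.81e-04), with the phosphatase gene Ptprj at 0.59, the ubiquitin ligase gene Cblb at 0.61 and the deubiquitinase gene Usp8 at -0.43. Synaptic scaffolds of the receptors were above 0 in 5 of 7 (median 0.17), with Lin7a at 0.85 and Sntb2 at 0.59. All genes are given as log2 fold changes, and the median over all genes tested was -0.0382.

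The list of ERK feedback and early target genes held the 3 pathway genes with an unadjusted p under 0.05, and all 3 are feedback inhibitors of ERK signalling. Spry4, a Sprouty gene, was at 8.999, 6.68 and 5.04 CPM in sgRosa and 18.1, 13.2 and 12.1 CPM in sgEgfr (log2 fold change 1.084, SE 0.33; edgeR adjusted p = 0.781). Spry2 was at 57.4, 156 and 77.5 CPM in sgRosa and 206, 204 and 174 CPM in sgEgfr (1.01, SE 0.38; edgeR adjusted p = 0.781). Spred2, of the related Spred family, was at 12.9, 16.3 and 22.1 CPM in sgRosa and 28.4, 24.1 and 27.3 CPM in sgEgfr (0.62, SE 0.26; edgeR adjusted p = 0.781). In each of the 3, the lowest sgEgfr library was above the highest sgRosa library, and none passed over all genes tested. They are 3 of the 18 tested genes of the list, where 13.4% of all genes tested had separate groups and 6.16% an unadjusted p under 0.05. All 6 Sprouty and Spred genes tested had log2 fold changes above 0, with Spry1 at 0.56, Spred1 at 0.38 and Spred3 at 0.17, and their grouping was made after the values were seen. Spred3 was -0.28 with the pan-neuronal covariate and -0.18 with the oligodendrocyte covariate, which are described above.

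Over the whole list 10 of 18 tested genes were above 0 (median 0.20). Of the 12 outside the Sprouty and Spred families, 4 were above 0 (Dusp5 at 0.90, Etv5 at 0.51, Dusp4 at 0.39 and Etv1 at 0.22) and 8 below. The immediate early genes Fos and Egr1, which ERK and neuronal activity induce, were at -1.33 and -0.61 (Egr1 at 0.13 without sgRosa replicate 2), and the ERK phosphatase gene Dusp6 was at -0.13 (0.0435 without both choroid plexus libraries). Fos was at 667, 675 and 157 CPM in sgRosa and 147, 322 and 127 CPM in sgEgfr, so that sgRosa replicate 3 lay with the sgEgfr libraries. With the pan-neuronal covariate Fos was -0.19 and Egr1 -0.14, and with the oligodendrocyte covariate they were -0.49 and -0.40.

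**Figure D5:**
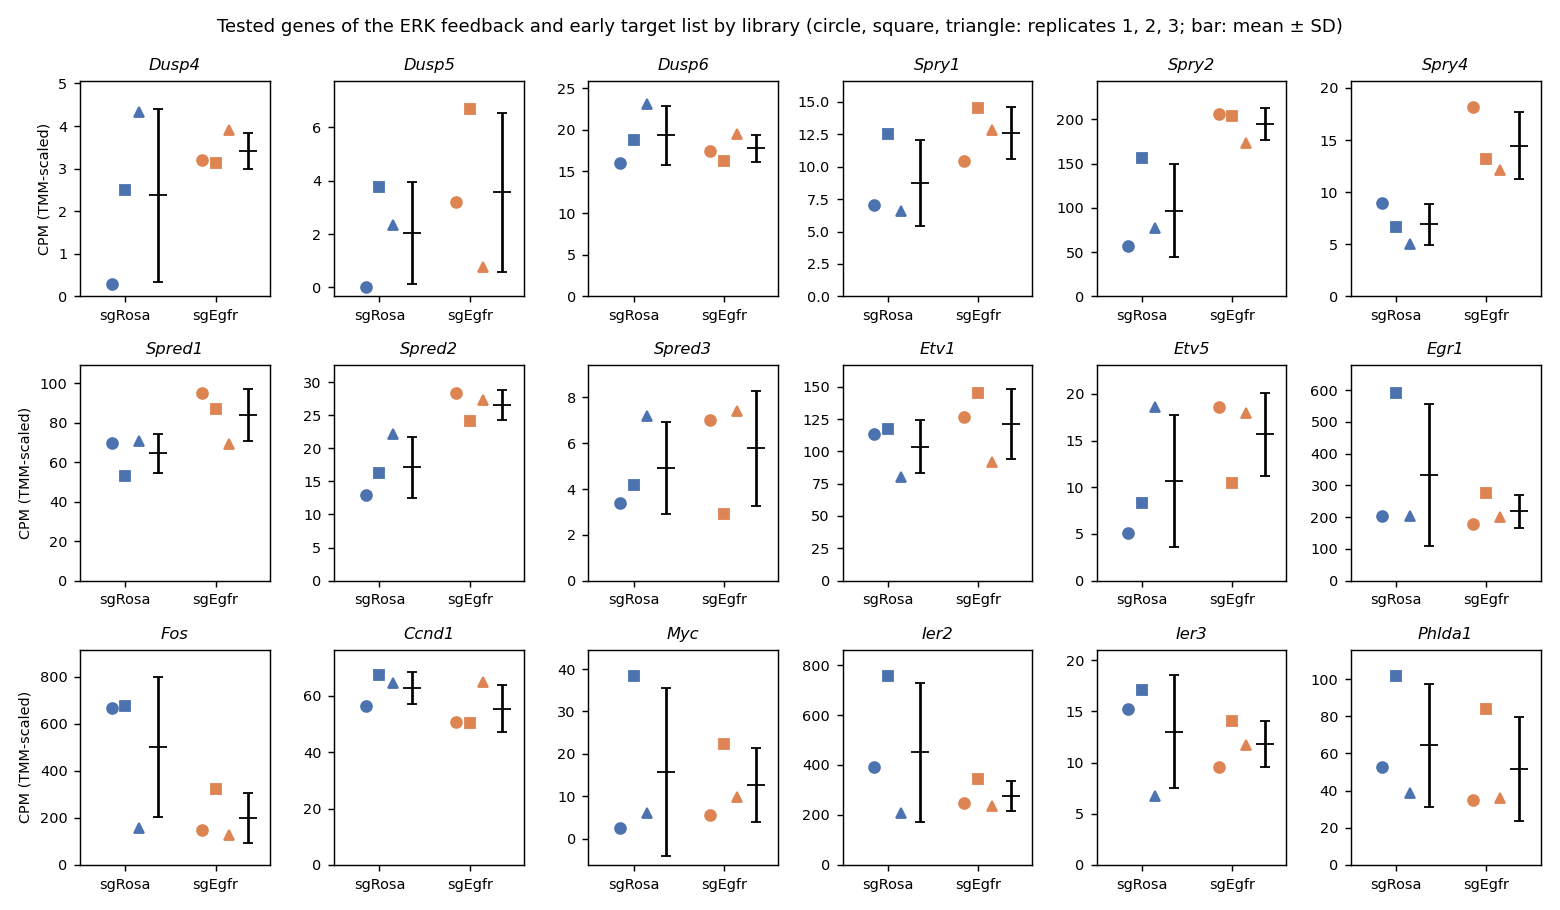
Level (CPM, TMM-scaled; axes from 0 or just below it where the bar crosses 0) of the 18 tested genes of the ERK feedback and early target list in sgRosa (blue) and sgEgfr (orange) libraries, with symbols for replicates and a bar for the mean ± SD. The groups are separate in the panels of Spry2, Spry4 and Spred2 and overlap in the other 15.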

How the data were processed

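Read counts per gene were analysed for 6 libraries of neuron-enriched amygdala cells, 3 sgRosa and 3 sgEgfr, grouped by sample title. The authors deposited raw counts, with no normalization. The submitters' processing notes name build mm10, the aligner STAR 2.7.5c, the counter featureCounts 2.0.1, the trimmer fastp 0.23.2 and edgeR 3.42.4; annotation, options and strand setting are not given in the sources used here. Libraries were made from 5 ng of RNA, per the labels' protocols. The counts carry no molecular identifiers, so intervals and floors cover counting error only. A table of the whole series held 6 columns identical to the library tables and 3 columns that matched no sample and were not used. Whether libraries came from separate animals is not stated, so p-values measure the spread between libraries; no pair agreed within sampling noise (lowest chi-square per degree of freedom 9.53).

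Genes were filtered with filterByExpr (minimum count 10, minimum total 15), scaled by TMM and tested with edgeR's quasi-likelihood fit (edgeR 4.0.16, R 4.3.3, robust, not legacy) with Benjamini-Hochberg adjustment at 0.05. DESeq2 1.42.0 and limma 3.58.1 were alternatives, and the limma-voom fit weighted each library by its estimated quality. Standard errors and 95% intervals were computed from each fitted change and its F value. CPM is TMM-scaled, and log2 CPM used a prior count of 2. The test was tried on simulated counts that gave every gene the same spread. Egfr and other members spread more widely than that, so the simulation does not show how the test performs for them. Positions and exon lengths come from GENCODE M21 (GRCm38, the assembly of mm10). The genes always described were the 10 members. From each pathway list up to 3 genes with the smallest p were to be named, and Spry1, Spred1, Spred3, Fos, Egr1, Dusp6, Dusp5, Etv5, Dusp4 and Etv1 were named after their values were seen. Genes most alike in pattern were to be named for Erbb3, Erbb4 and Egfr (mean log2 CPM of at least 4). Some genes that these rules select are not reported here. Nrdc and Erbin were matched under older symbols. The members and lists were chosen with earlier results of these data known. No outlier test applies to groups of 3.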

Additional observations from a re-analysis of the deposited data

How the results depend on the processing

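Where an adjusted p could be had, no member passed 0.05 under any of the 17 alternative settings (library-size or RLE scaling, a stricter filter or none, DESeq2, limma-voom, a replicate block, a pan-neuronal or an oligodendrocyte covariate, leaving out the choroid plexus libraries or each library in turn, and the legacy quasi-likelihood fit, the last chosen after seeing the data); the stricter filter removed Egfr and Erbb2, DESeq2 left the adjusted p of 4 members undefined, and Egfr was also filtered out when sgEgfr replicate 2 was left out. Over all genes edgeR called 0 and DESeq2 called 33 (31 higher, 2 lower, 5114 undefined adjusted p), while the unadjusted count was 811 and 787; the cause was not tested. Of 133 alternative values of the 8 members, 12 changed sign. Leaving out each library in turn, Egfr took values from -1.16 (sgRosa replicate 1 left out) to 0.95 (sgRosa replicate 2), Erbb2 from -0.20 (sgRosa replicate 3; -0.0545 for sgEgfr replicate 1) to 0.94 (sgRosa replicate 2), Erbb4 from -0.91 (sgEgfr replicate 2) to 0.0748 (sgRosa replicate 1) and Hbegf from -0.0044 (sgEgfr replicate 2) to 0.82 (sgRosa replicate 2). Erbb2 was -0.47 without both choroid plexus libraries. With the pan-neuronal covariate Erbb3, Erbb4 and Tgfa were 0.54, 0.30 and 0.16, and with the oligodendrocyte covariate 0.20, 0.16 and 0.0206; the cause was not tested. Of the alternative values of named pathway genes, 10 changed sign. Leaving out each library in turn, Adam10 ran from -0.00338 to 0.51, Spred3 from -0.0281 to 0.60 (-0.00838 without sgEgfr replicate 1), Egr1 from -0.86 to 0.13, Dusp6 from -0.23 to 0.0253 and Dusp4 from -0.0713 to 1.42. Adam10 and Dusp6 were -0.0460 and 0.0435 without both choroid plexus libraries, and Spred3 was -0.28 with the pan-neuronal and -0.18 with the oligodendrocyte covariate. Same-numbered libraries had correlations of -0.0311, 0.48 and 0.28 in their deviations from the group means. Differently numbered libraries ran from -0.45 to 0.21, so these values do not settle whether the numbers pair the libraries. With the replicate block 0 genes and 0 members passed, and Egfr was -0.26 and Nrg1 1.19. Areg and Nrg2 were under the count filter and have no fitted value.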

Other observations

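Of 7717 tested genes with a mean log2 CPM of at least 4, those whose log2 CPM ran most like Erbb4 over the 6 libraries were the netrin receptor gene Unc5b (Pearson r = 0.998), Nbas (0.996) and Dock10 (0.995), the gene of an exchange factor for small GTPases. Dock10 was at 159, 85.6 and 36.5 CPM in sgRosa and 49.7, 88.4 and 35.1 CPM in sgEgfr. The genes most like Erbb3 included Ktn1 (0.997) and Cr1l (0.994). Those most like Egfr were Syvn1 (0.984), Slc41a1 (0.983) and Igfbp5 (0.980), which encodes a binding protein of insulin-like growth factors. Igfbp5 was at 12.4, 200 and 68.9 CPM in sgRosa and 43.3, 108 and 57.7 CPM in sgEgfr. It was selected for running like Egfr in these same libraries. Its low value in sgRosa replicate 1 and high value in sgRosa replicate 2 are therefore no separate evidence on Egfr. The correlations given here are the highest of 7717 over 6 libraries for each member and are given as a description, with no test.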
